A study of Mus musculus with 27 samples.

Results

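The homeobox genes outside the Hox clusters are taken here as the 60 genes, of 20156 in the expression tables, whose symbols begin with Lhx, Nkx, Pax, Dlx, Irx, Otx, Msx, Emx, Pitx, Alx or the name of the sine oculis family (as in Six2) followed by a digit. They fall into 11 families, of which Nkx (13 genes), Pax (9) and Lhx (8) are the largest and Emx and Otx (2 each) the smallest. Their expression and promoter chromatin were followed from mouse embryonic fibroblasts (MEFs) to pre-iPSCs, a stable intermediate of reprogramming, and to induced pluripotent stem cells (iPSCs). The MEFs came from e13.5 embryos hemizygous for an Oct4-GFP transgene and a Rosa26 allele, with a genetic background labelled CBA/CaJ and C57BL/6J. The study's methods add a further strain on the maternal side. Pre-iPSCs and iPSCs carried the same alleles and were derived from such MEFs with retroviruses for the Yamanaka factors, as 2 stable pre-iPSC clones and their iPSCs. They grew on MEF feeder layers with serum and LIF, for 6 passages before RNA-seq against at most 3 for MEFs. For each cell type 2 libraries of RNA-seq, H3, H3K4me3 and H3K27me3 and 1 of H3K9me3 were analysed. The study describes the paired libraries as biological replicates, and the clone of a library is not given in the sources used here. The p-values measure the spread between these libraries. In these bulk samples fewer cells of a type and less RNA per cell cannot be told apart.

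Homeobox genes encode transcription factors that bind DNA through a homeodomain and lay down the plan of the embryo. The members were taken by symbol and not by domain, so they include Pax genes, such as Pax1, that lack a full homeodomain. The families outside the Hox clusters pattern the head, eye, limb, heart, muscle and gut, each member in its own territory. In cells that do not use them, CpG-rich promoters of such regulators are classic targets of Polycomb, which places H3K27me3 on silent chromatin, while H3K4me3 marks CpG-rich starts of genes. In pluripotent cells many of these promoters carry both marks, a state called bivalent. Levels of RNA are given as FPKM (fragments per kilobase of transcript, scaled to the mapped fragments of the library), which is per length, and levels of a mark as RPKM, the reads of called nucleosomes within 1000 bp of the transcription start site (TSS) per kb, scaled to the unique reads of the library.

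The labels were checked against markers and depth first. Col1a1, the fibroblast collagen, measured 2144 and 1614 FPKM in MEFs, 93.7 and 27.7 FPKM in pre-iPSCs, then 74.7 and 70.6 FPKM in iPSCs. The 10 fibroblast markers together summed to 4463 and 4251 FPKM for MEFs, 306 and 98.0 for pre-iPSCs and 210.3 and 246 for iPSCs, and none was at 0 in both libraries of a cell type. Nanog, a core pluripotency factor, measured 0 and 0 FPKM in MEFs, 0.519 and 0 FPKM in pre-iPSCs, then 49.5 and 73.6 FPKM in iPSCs, and Pou5f1, one of the transduced factors, 0 and 0.50 FPKM in MEFs, 378 and 3184 FPKM in pre-iPSCs, then 586 and 397 FPKM in iPSCs. Of 10 pluripotency markers, 6 were listed at 0 in both MEF libraries, 1 (Dppa3) in both pre-iPSC libraries and none in both iPSC libraries. Markers of neural cells (7 genes) summed to 64.2 and 53.0 FPKM for MEFs, 88.1 and 20.0 for pre-iPSCs and 54.5 and 32.4 for iPSCs, and those of endoderm (6 genes) and mesoderm (5 genes) to at most 3.67 and 2.49 FPKM in any library. The expression tables give no counts, so the depth behind an FPKM is unknown. Reads in called nucleosomes ranged from 12007350 to 13146349 per H3K4me3 library. Scaled to the unique reads of a library, 1 RPKM stands for 29.5 to 32.6 reads, and it stands for 32.7 to 37.8 in H3K27me3. At such counts single promoters are measured with a wide counting error. The share of these reads at promoters was 6.03% in the first MEF H3K4me3 library against 3.92 to 4.82% in the other 5. In H3 it was 3.13% in the first pre-iPSC library and 2.31% in the first iPSC library, against 1.21 to 1.35% in the other 4. MEF chromatin was digested with a larger volume of MNase for a shorter time than that of the other cells, so cell type and digestion cannot be told apart in comparisons with MEFs.

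The promoters of these genes were rich in CpG. Within 500 bp of the TSS the median ratio of observed to expected CpG was 0.698 over the 60 members and 0.601 over all 20156 promoters. A ratio of at least 0.6 was found at 47 of the 60 (78.3%) and at 50.2% of all promoters, and the median GC content was 61.5% against 56.0%. In the 250 bases upstream of the TSS the dinucleotide CG, which reads the same on both strands, occurred at every member, with a median of 15.5 against 11 for all promoters. At least 10 such CG were held by 76.7% of members and 53.6% of all promoters, and at least 1 by 93.6% of the latter. The 3 windows printed here, from the mm9 genome and on the strand of the gene, stand for the patterns below: Otx2, with 4 CG, lost H3K27me3 as its RNA appeared (chr14:49282548-49282797, minus strand); Nkx2-5, with 8, is a heart gene that stayed near 0 FPKM while its H3K27me3 fell in pre-iPSCs (chr17:26978511-26978760, minus strand); and Irx4, with 22, gained H3K4me3 without RNA (chr13:73397695-73397944, plus strand). The falls of H3K27me3 at Otx2 and Nkx2-5 in pre-iPSCs were called with edgeR but not with DESeq2, as given below. Capitals mark CG. All 3 windows overlap no annotated exon.
Otx2: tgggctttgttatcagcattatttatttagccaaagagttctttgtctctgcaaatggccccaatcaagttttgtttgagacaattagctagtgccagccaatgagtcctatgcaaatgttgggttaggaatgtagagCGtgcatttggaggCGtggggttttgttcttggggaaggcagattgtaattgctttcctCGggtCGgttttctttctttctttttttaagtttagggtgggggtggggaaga
Nkx2-5: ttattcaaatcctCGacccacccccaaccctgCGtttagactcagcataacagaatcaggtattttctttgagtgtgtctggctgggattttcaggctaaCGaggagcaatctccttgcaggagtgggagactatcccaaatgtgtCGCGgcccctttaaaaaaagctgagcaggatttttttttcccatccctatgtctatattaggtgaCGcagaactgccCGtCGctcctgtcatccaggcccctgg
Irx4: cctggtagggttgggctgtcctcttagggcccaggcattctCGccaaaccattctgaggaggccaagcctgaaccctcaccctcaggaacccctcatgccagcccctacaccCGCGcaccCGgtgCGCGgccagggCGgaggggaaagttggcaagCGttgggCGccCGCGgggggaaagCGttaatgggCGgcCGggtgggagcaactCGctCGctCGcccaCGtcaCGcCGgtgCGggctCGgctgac

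Most members were silent. In all 6 libraries 36 of the 60 (60%) stayed below 1 FPKM, against 36.7% of all genes, and Pax4 and Nkx2-6 were listed at 0 throughout. At least 1 FPKM in both libraries was reached by 15 members for MEFs, 9 for pre-iPSCs and 10 for iPSCs, or 25%, 15% and 16.7%, where 49.2 to 51.7% of all genes did. At least 5 FPKM in both libraries was reached by 5 members for MEFs, 2 for pre-iPSCs and 4 for iPSCs. Fewer members were listed at 0 in both libraries in iPSCs (7) than in pre-iPSCs (16) and MEFs (25), without a test. Over all genes the shares listed at 0 took the same order, with 20.2%, 22.6% and 26.5%. The families differed in how much RNA they gave. Irx, with 5 genes, summed to 40.3 and 28.3 FPKM for MEFs, 17.4 and 20.4 for pre-iPSCs and 4.67 and 5.21 for iPSCs. Lhx, with 8 genes of which 7 never reached 1 FPKM, summed to no more than 6.67 FPKM in any library, and 11 of the 13 Nkx genes never reached 1 FPKM.

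**Figure D1:**
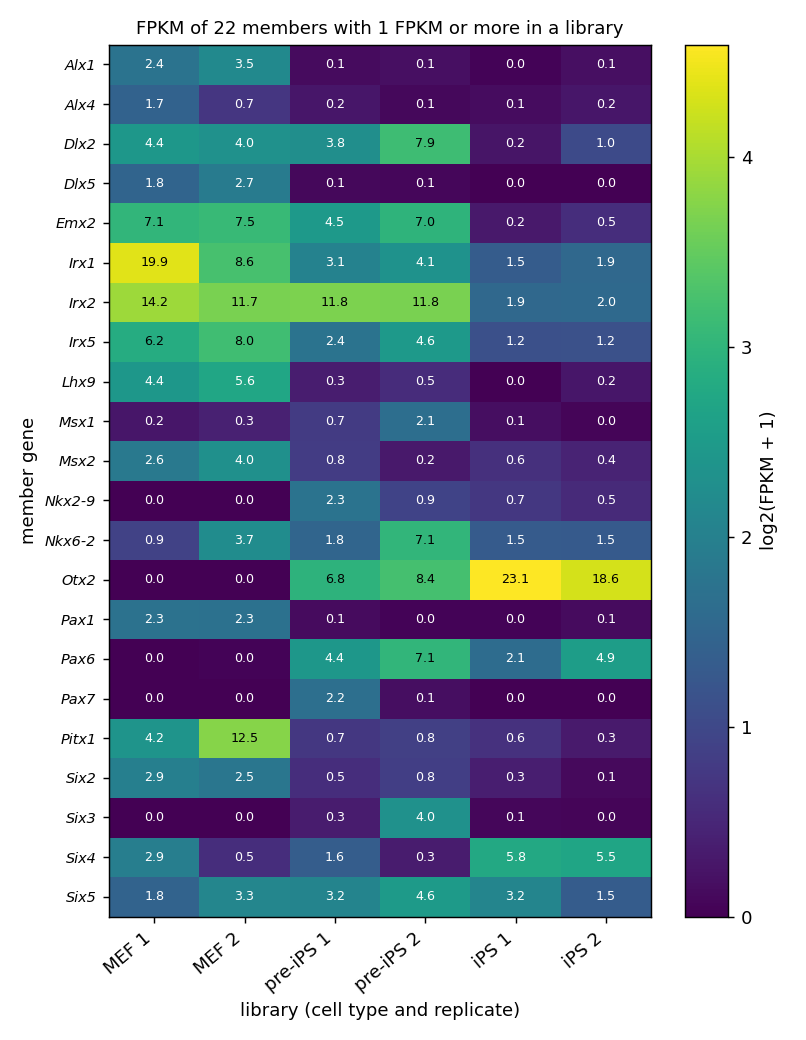
FPKM of 22 of the 24 members that reached 1 FPKM in at least 1 library, in the 6 RNA-seq libraries (columns, cell type and replicate), coloured by log2(FPKM + 1) with the FPKM printed in each cell. Irx1, Irx2, Irx5 and Emx2 are bright in MEFs, and Otx2 is brightest in iPSCs.

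The first comparison asked which members changed between MEFs and pre-iPSCs. Pitx1, Lhx9, Alx1, Pax1, Dlx5, Msx2 and Six2 were among those that fell, and Otx2, Pax6 and Nkx2-9 rose. Of the 22 members that passed the filter of a mean of 0.5 FPKM, 8 were called lower and 3 higher by limma, which means an adjusted p under 0.05 together with a 2-fold change or more on the log2(FPKM + 1) scale. Over the 12401 genes tested 16.4% were called, 9% lower and 7.39% higher. Members of low level pass the filter mainly through the cell type in which they are high, so the share called is no evidence about the family, and 38 members were not tested. Where a cell type is listed at 0, as MEFs are for Otx2, the value is a difference on this scale and not a fold.

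Pitx1, which specifies the hindlimb, measured 4.19 and 12.5 FPKM in MEFs, 0.669 and 0.835 FPKM in pre-iPSCs, then 0.578 and 0.255 FPKM in iPSCs, with the MEF libraries apart from each other but above all 4 others. It fell by 2.26 ± 0.46 (SE, adjusted p = 0.0166). Lhx9, a gene of the gonad and limb, measured 4.42 and 5.61 FPKM in MEFs, 0.291 and 0.504 FPKM in pre-iPSCs, then 0 and 0.218 FPKM in iPSCs, and MEFs did not overlap the reprogrammed cells. Its fall was 2.10 ± 0.30 (SE, adjusted p = 0.00499). Alx1, a gene of facial mesenchyme, measured 2.36 and 3.52 FPKM in MEFs, 0.0984 and 0.146 FPKM in pre-iPSCs, then 0.0315 and 0.143 FPKM in iPSCs, high only in MEFs, and fell by 1.80 ± 0.29 (SE, adjusted p = 0.00747). Pax1, a gene of the sclerotome, measured 2.33 and 2.28 FPKM in MEFs, 0.0926 and 0.0275 FPKM in pre-iPSCs, then 0.0296 and 0.101 FPKM in iPSCs. Dlx5, which acts in the pharyngeal arches and in bone, measured 1.77 and 2.74 FPKM in MEFs, 0.0668 and 0.0555 FPKM in pre-iPSCs, then 0 and 0 FPKM in iPSCs. Msx2, a homeobox gene of limb and skull downstream of BMP, measured 2.61 and 3.96 FPKM in MEFs, 0.767 and 0.239 FPKM in pre-iPSCs, then 0.551 and 0.375 FPKM in iPSCs, and Six2, which maintains nephron progenitors, 2.93 and 2.49 FPKM in MEFs, 0.512 and 0.808 FPKM in pre-iPSCs, then 0.302 and 0.0857 FPKM in iPSCs. All 4 were higher in both MEF libraries than in any other library, and fell by 1.64, 1.60, 1.52 and 1.16 on the log2 scale (limma adjusted p = 0.00863, 0.0107, 0.0266 and 0.0442). The fibroblast markers moved with these genes: 9 of the 10 were called lower and their sum in pre-iPSCs was 7.03 and 2.25% of the MEF mean. Alx1, Pax1 and Dlx5 stood at 1.19 to 4.97% of theirs, and Pitx1, Lhx9, Msx2 and Six2 at 5.81 to 29.8%. The part that remaining or feeder fibroblasts play in these levels was not tested. Where a library is left out, its cell type keeps 1 library that is assumed to vary like the others, so a call can be lost through the smaller design alone. The calls of Lhx9, Alx1, Pax1 and Dlx5 were kept under each alternative in which they were tested, and that of Pitx1 under all but 1. That of Six2 was lost under 7, among them without the first MEF library or any 1 of the 4 pre-iPSC and iPSC libraries, and that of Msx2 under 5, among them without the second MEF library, the second pre-iPSC library or either iPSC library.

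Otx2, which specifies the forebrain and midbrain and also acts in the epiblast, measured 0 and 0 FPKM in MEFs, 6.80 and 8.44 FPKM in pre-iPSCs, then 23.1 and 18.6 FPKM in iPSCs. It was listed at 0 in both MEF libraries and its levels did not overlap between any cell types. It rose by 3.10 ± 0.37 (SE, adjusted p = 0.00280). Pax6, the master gene of the eye, measured 0 and 0.0307 FPKM in MEFs, 4.42 and 7.10 FPKM in pre-iPSCs, then 2.09 and 4.91 FPKM in iPSCs, so that pre-iPSCs and iPSCs overlapped while both stood above MEFs. It rose by 2.71 ± 0.37 (SE, adjusted p = 0.00426). Both calls were kept under each of the alternatives tried. Exons of Pax6 overlap those of Elp4 on the other strand, and the counting is not stated to use strand, so their reads cannot be told apart. Elp4 measured 2.57 and 3.36 FPKM in MEFs, 4.23 and 3.51 FPKM in pre-iPSCs, then 6.24 and 4.90 FPKM in iPSCs. Nkx2-9, a gene of the ventral neural tube, measured 0 and 0 FPKM in MEFs, 2.34 and 0.887 FPKM in pre-iPSCs, then 0.679 and 0.463 FPKM in iPSCs, low everywhere and at 0 in MEFs. It rose by 1.33 ± 0.32 (SE, adjusted p = 0.0301), a call lost without the first MEF library or either iPSC library. The neural markers given above were higher in 1 pre-iPSC library and lower in the other than in MEFs, and 1 of the 3 tested was called higher. Msx1, the partner of Msx2 in limb and face, measured 0.215 and 0.341 FPKM in MEFs, 0.738 and 2.15 FPKM in pre-iPSCs, then 0.125 and 0.0472 FPKM in iPSCs. Its direction was opposite to that of Msx2, 0.87 ± 0.33 on the log2 scale, but it did not pass (limma adjusted p = 0.116). Six3, a forebrain and eye gene named after its values were seen, measured 0 and 0 FPKM in MEFs, 0.281 and 3.99 FPKM in pre-iPSCs, then 0.0624 and 0.0471 FPKM in iPSCs, which is 1 high library of 6, and it did not pass (adjusted p = 0.114). Nkx6-2, the Nkx gene with the highest mean, measured 0.873 and 3.68 FPKM in MEFs, 1.83 and 7.14 FPKM in pre-iPSCs, then 1.49 and 1.47 FPKM in iPSCs and passed in no comparison.

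From pre-iPSCs to iPSCs 2 members rose and 3 fell of the 22 tested, where 3.91% of all genes tested rose and 4.71% fell (8.62% in all). Six4 was 1 of those that rose. This gene of muscle precursors measured 2.92 and 0.512 FPKM in MEFs, 1.56 and 0.275 FPKM in pre-iPSCs, then 5.84 and 5.47 FPKM in iPSCs, with the replicates of MEFs and of pre-iPSCs far apart, and rose by 1.88 ± 0.41 (SE, adjusted p = 0.0339). Emx2, a gene of the cerebral cortex and urogenital tract, measured 7.11 and 7.49 FPKM in MEFs, 4.52 and 6.96 FPKM in pre-iPSCs, then 0.241 and 0.512 FPKM in iPSCs. It stood above 4 FPKM in each MEF and pre-iPSC library and below 1 FPKM in both iPSC libraries. Its fall was 2.27 ± 0.36 (SE, adjusted p = 0.0107). Irx2 and Dlx2 were also lower in both iPSC libraries than in the 4 others. Irx2 measured 14.2 and 11.7 FPKM in MEFs, 11.8 and 11.8 FPKM in pre-iPSCs, then 1.95 and 1.95 FPKM in iPSCs and fell by 2.12 ± 0.36 (SE, adjusted p = 0.0135). Dlx2, a gene of the pharyngeal arches and of forebrain interneurons, measured 4.39 and 4.03 FPKM in MEFs, 3.84 and 7.93 FPKM in pre-iPSCs, then 0.191 and 1.04 FPKM in iPSCs and fell by 2.08 ± 0.40 (SE, adjusted p = 0.0218). Without a filter on low values 3 members were called, where 421 genes rose and 367 fell of 16963. Without the first iPSC library no member was called in this comparison, where the calls over all genes also dropped, from 485 higher and 584 lower to 104 and 75, and the median change of the members tested was -0.43 against -0.52. Fewer members were also called without the second iPSC library or without the second pre-iPSC library, and more without the first or the second MEF library. Calls over all genes moved in the same direction in each of these fits.

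Over the whole course, iPSCs against MEFs, 12 members were lower and 4 higher, with 15.5% and 10.3% of all genes tested (25.9% together). This comparison shares its libraries with the first pair, so its values are given beside theirs and not as support. Otx2, Pax6 and Six4 were among the higher, by 4.44, 2.07 and 1.45 on the log2 scale (limma adjusted p = 7.9e-04, 0.00788 and 0.0398). The falls of Pitx1, Lhx9, Alx1, Dlx5, Six2, Pax1 and Msx2 ranged from 1.54 to 2.57. The others that fell were Emx2, Dlx2 and 3 Irx genes. Irx1 measured 19.9 and 8.58 FPKM in MEFs, 3.11 and 4.07 FPKM in pre-iPSCs, then 1.51 and 1.93 FPKM in iPSCs and fell by 2.38 ± 0.46 (SE, adjusted p = 0.0105). Irx5 measured 6.18 and 8.05 FPKM in MEFs, 2.36 and 4.56 FPKM in pre-iPSCs, then 1.18 and 1.19 FPKM in iPSCs and fell by 1.88 ± 0.38 (SE, adjusted p = 0.0115). Irx genes act in limb, heart and neural tube, and the 3 expressed ones stood in the order MEFs, pre-iPSCs, iPSCs in their mean levels, with the largest step of Irx2 between pre-iPSCs and iPSCs. Without the first or the second iPSC library fewer members were called in the comparison with MEFs, and fewer genes over the whole table as well.

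Cofactors of these proteins and homeobox genes of other families were listed separately. Among 26 cofactors (Ldb, Ssbp, Lmo, Eya, Dach, Tle, Pbx and Meis genes) 23 were tested: 2 rose and 5 fell in pre-iPSCs against MEFs, and 1 fell from pre-iPSCs to iPSCs. Eya2, a coactivator of proteins such as Six4, measured 1.25 and 0.866 FPKM in MEFs, 8.52 and 34.4 FPKM in pre-iPSCs, then 0.0334 and 0.151 FPKM in iPSCs, high only in pre-iPSCs. It rose by 3.16 ± 0.54 and then fell by 4.07 ± 0.54 on the log2 scale. Eya1, of the same family, measured 2.10 and 2.97 FPKM in MEFs, 0.219 and 0.0649 FPKM in pre-iPSCs, then 0.368 and 0.477 FPKM in iPSCs and was high only in MEFs. Tle4, a Groucho corepressor, measured 1.97 and 0.946 FPKM in MEFs, 19.4 and 10.5 FPKM in pre-iPSCs, then 14.0 and 18.0 FPKM in iPSCs and rose by 2.67 ± 0.42 in pre-iPSCs. Ldb2, Lmo4 and Meis3 were among those that fell with Eya1 in pre-iPSCs. Of 31 homeobox genes of other families 16 were tested, with 7 higher and 7 lower in pre-iPSCs against MEFs, and 3 lower in iPSCs against pre-iPSCs. Of all genes tested 16.4% were called in the first comparison and 8.62% in the second. Genes of low level in both lists pass the filter mainly through the cell type in which they are high, so these counts are no evidence about the lists. Vax2, a ventral eye gene, measured 0.990 and 2.49 FPKM in MEFs, 30.3 and 35.5 FPKM in pre-iPSCs, then 0.763 and 0.0788 FPKM in iPSCs, Tlx3, a sensory neuron gene, 0 and 0 FPKM in MEFs, 6.82 and 6.38 FPKM in pre-iPSCs, then 0.756 and 0.551 FPKM in iPSCs, and Barx2 0.0585 and 0.0904 FPKM in MEFs, 3.54 and 10.1 FPKM in pre-iPSCs, then 0.588 and 0.154 FPKM in iPSCs. Each of these was high only in pre-iPSCs and passed both upward and downward. The mesenchymal genes Prrx1 and Prrx2 fell by 3.86 ± 0.54 and 4.23 ± 0.67 in pre-iPSCs, the former from 85.2 and 106 FPKM in MEFs.

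H3K27me3 stood high at these promoters, given here as a description. The median over the 60 members was 0.773 and 0.768 RPKM in MEFs, 0.605 and 0.642 RPKM in pre-iPSCs, then 0.677 and 0.627 RPKM in iPSCs. Over all 20156 promoters it was 0.182 and 0.212 for MEFs, 0.225 and 0.214 for pre-iPSCs, then 0.259 and 0.239 for iPSCs. Ranked among all promoters of the same library, the median member stood at percentile 93.3 and 91.7 for MEFs, 87.5 and 88.1 for pre-iPSCs, then 90.3 and 88.1 for iPSCs. In the top 5% of a library were 28 and 24 members for MEFs, 18 and 18 for pre-iPSCs and 18 and 15 for iPSCs, or 46.7% to 25% of the 60. The CpG-rich promoters as a whole had less: over the 10109 promoters with a CpG ratio of at least 0.6 the median was 0.121 to 0.202 RPKM. The 39 genes of the Hox clusters showed another order, with median percentiles of 81.8 and 84.2 for MEFs, 76.9 and 76.2 for pre-iPSCs, then 95.3 and 94.1 for iPSCs. The difference between these families was not tested.

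**Figure D2:**
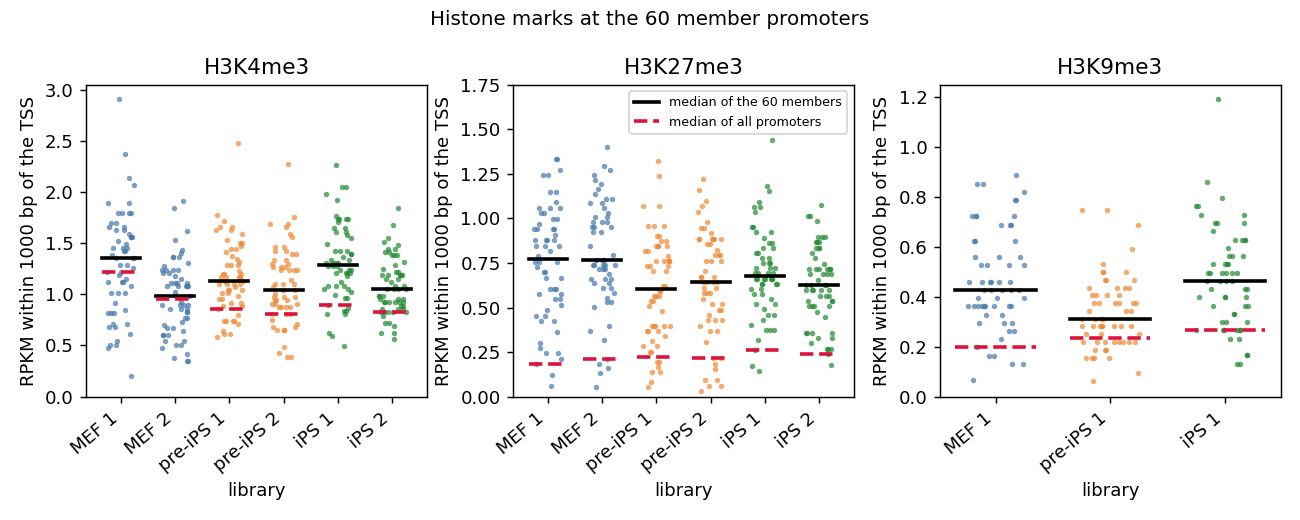
RPKM of H3K4me3, H3K27me3 and H3K9me3 within 1000 bp of the TSS for each of the 60 members (points) in each library, with the median of the members (black bar) and of all 20156 promoters (dashed red bar). The members' H3K27me3 medians lie between 0.605 and 0.773, above medians of 0.182 to 0.259 for all promoters, while for H3K4me3 the members' bars lie nearer to those of all promoters.

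The higher level of H3K27me3 extended beyond the promoter. Averaged over the members, it was 0.749 and 0.786 RPKM within 1000 bp of the TSS in MEFs and 0.861 and 0.811 at 4 to 5 kb, a dip at the TSS and not a peak. All promoters had 0.285 and 0.306 near the TSS and 0.342 and 0.357 at the distance. H3K4me3 peaked at the TSS in both, but stayed higher around members: at 4 to 5 kb it was 0.782 and 0.776 RPKM in iPSCs over members, against 0.416 and 0.444 over all promoters. The ratio of near to distant H3K4me3 was 1.39 to 1.74 at members and 1.79 to 2.85 at all promoters.

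**Figure D3:**
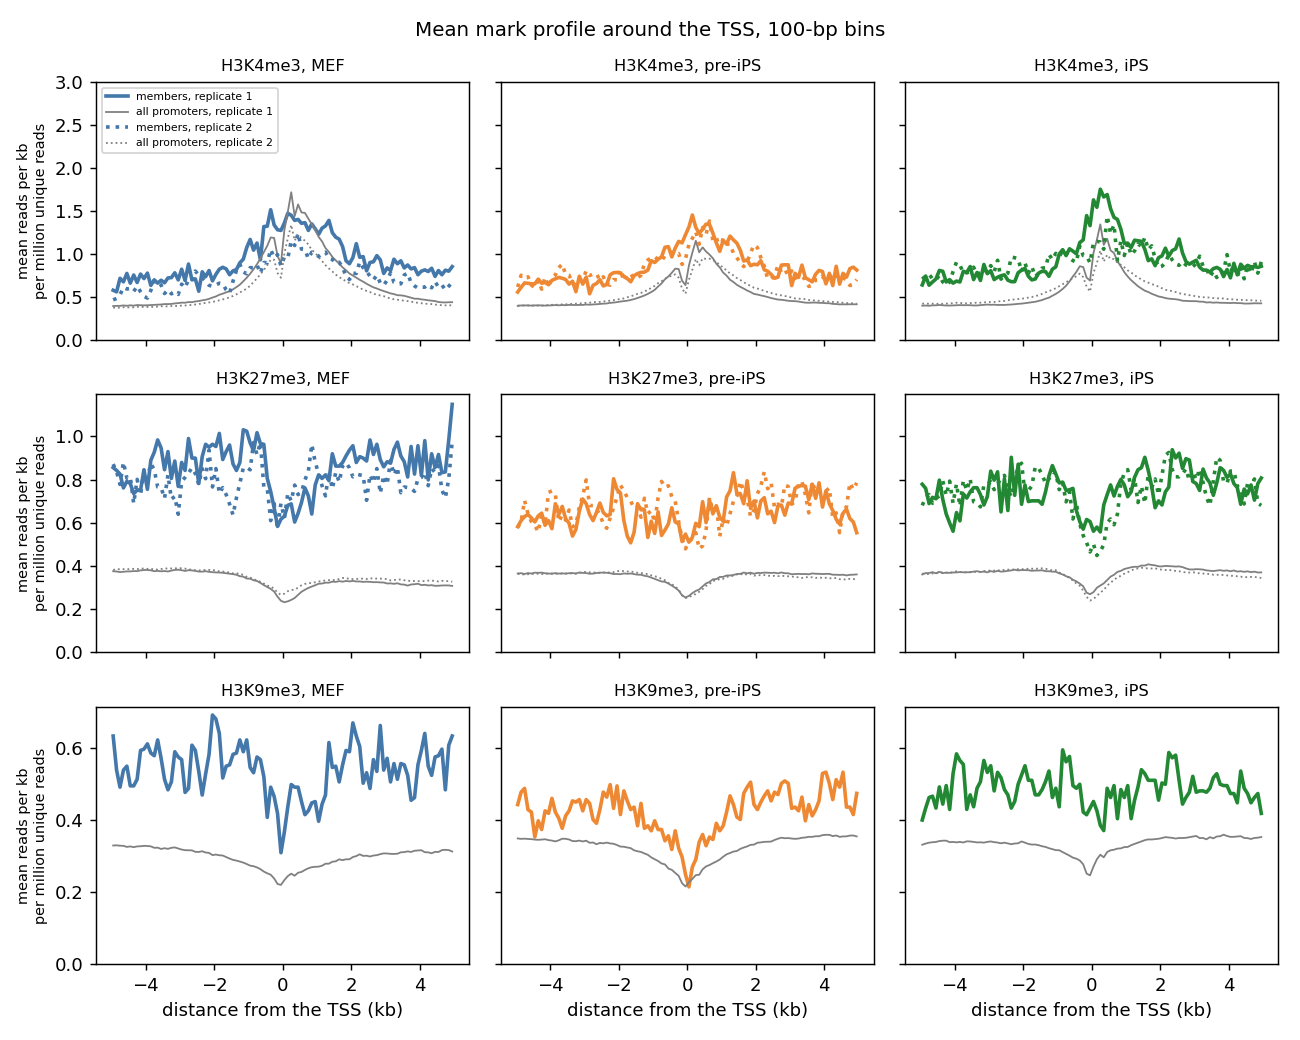
Mean level in RPKM against distance from the TSS in kb (negative is upstream), as a moving mean of 3 bins of 100 bp, for the 60 members (coloured) and all promoters (grey), with replicate 1 solid and replicate 2 dotted (H3K9me3 has 1 library per cell type). Members stay above the grey lines for H3K27me3 across all 5 kb on either side, with a dip at the TSS.

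Between MEFs and pre-iPSCs a few members were called for a loss of H3K27me3 and none for a gain, and the number called depended on the window and on the calls counted. With edgeR's quasi-likelihood test on the counts, 7 of the 57 members tested were lower (12.3%) and none higher, where 3.14% of the 10410 promoters tested were lower and 5.16% higher (8.3% together). The median log2 change was -0.33 over members and -0.01 over all. Irx2, Six4 and Six5 had too few reads to be tested. With a window of 500 bp 1 member of 43 tested was called lower and with calls of at least 2 reads 2 of 56, and none was called higher in either. Over all promoters 47 of 4439 and 187 of 8413 were called lower under these settings, and 76 and 407 higher.

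Pax6 changed most among the 57 members. Its H3K27me3 measured 1.00 and 0.953 RPKM in MEFs, 0.0844 and 0.0306 RPKM in pre-iPSCs, then 0.662 and 0.298 RPKM in iPSCs. The MEF libraries were high, the pre-iPSC libraries nearly empty, and the iPSC libraries between. It fell by 3.98 ± 0.52 (SE, adjusted p = 4.3e-07) in pre-iPSCs and rose by 2.92 ± 0.61 (SE, adjusted p = 0.00727) in iPSCs, on the log2 scale. The first call was kept under each of the alternatives tried. The TSS used for Pax6 lies at position 105516286 of chromosome 2 (mm9, plus strand), 1 of several starts. Of the members 13, Pax6 and Otx2 among them, have another coding start more than 1000 bp away, which the window does not cover. At Otx2 the mark measured 1.06 and 1.09 RPKM in MEFs, 0.366 and 0.428 RPKM in pre-iPSCs, then 0.317 and 0.358 RPKM in iPSCs, high in MEFs and low in all 4 reprogrammed libraries, and fell by 1.44 ± 0.34 (SE, adjusted p = 0.00257). Nkx2-5, Nkx2-9, Pax3 and Pax5 fell by 0.87 to 0.98, with adjusted p from 0.0348 to 0.0496 by edgeR. With DESeq2 Pax6 was the only member called lower in pre-iPSCs against MEFs, so Otx2 and these genes were not called by it. Pax3, a gene of neural crest and muscle precursors, went from 1.24 and 1.27 RPKM in MEFs to 0.563 and 0.825 in pre-iPSCs while its RNA stayed at or below 0.0985 FPKM. Nkx2-5 went from 1.00 and 1.4 to 0.619 and 0.642 RPKM with RNA of at most 0.308 FPKM in any library. Of the 7 members that lost the mark 4 were tested in expression, and 3 of these (Pax6, Otx2 and Nkx2-9) were called higher in RNA. These 3 were at or near 0 in MEFs and passed the filter through the cells in which they are high. Their count is therefore no evidence of a link. Another 3 (Nkx2-5, Pax3 and Pax5) never reached 1 FPKM, as 36 of the 60 members (60%) did not. Exons of Pax5 overlap a gene on the other strand. Fewer members, and fewer promoters over all, were called without the second MEF library, the first pre-iPSC library or the second. The median log2 change of the members was then -0.38, -0.37 and -0.39, against -0.33 with all libraries.

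From pre-iPSCs to iPSCs 2 members gained H3K27me3, Pax6 and Emx2, where 0.682% of promoters did and 0.134% lost it (0.817% together). At Emx2 the mark measured 0.242 and 0.132 RPKM in MEFs, 0.141 and 0.0611 RPKM in pre-iPSCs, then 0.432 and 0.537 RPKM in iPSCs, highest in both iPSC libraries, and rose by 2.15 ± 0.55 (SE, adjusted p = 0.0310), in the comparison in which its RNA fell. Its TSS lies at position 59533180 of chromosome 19, plus strand. Neither call held without the first iPSC library or without the second pre-iPSC library, and 1 of the 2 held without the second iPSC library or the first pre-iPSC library. In iPSCs against MEFs 5 members were lower (8.77% of 57) and none higher, with 3.87% and 7.38% of all promoters (11.2% together). Among them were Otx2, lower by 1.71 ± 0.35 (SE, adjusted p = 3.1e-04), Pax6, by 1.06, and Nkx2-6, by 1.03. When libraries were scaled to unique reads, 2 members were higher and 4 lower, with 833 and 316 of 10410 promoters. Members called lower numbered 1 with a window of 500 bp, 2 with calls of at least 2 reads and 9 without a filter on low counts. Over all promoters those called lower were then 60 of 4439, 192 of 8413 and 587 of 19832. At Lhx9, whose RNA fell, the mark measured 0.788 and 0.556 RPKM in MEFs, 0.253 and 0.672 RPKM in pre-iPSCs, then 0.778 and 0.835 RPKM in iPSCs and at Pitx1 0.879 and 0.847 RPKM in MEFs, 0.956 and 0.855 RPKM in pre-iPSCs, then 0.490 and 0.656 RPKM in iPSCs. DESeq2 called 1 member lower in pre-iPSCs against MEFs and none in the other comparisons. In iPSCs against MEFs fewer members, and fewer promoters over all, were called without the second MEF library, the first iPSC library or the second. The median log2 change of the members was then -0.31, -0.34 and -0.19, against -0.23 with all libraries.

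**Figure D4:**
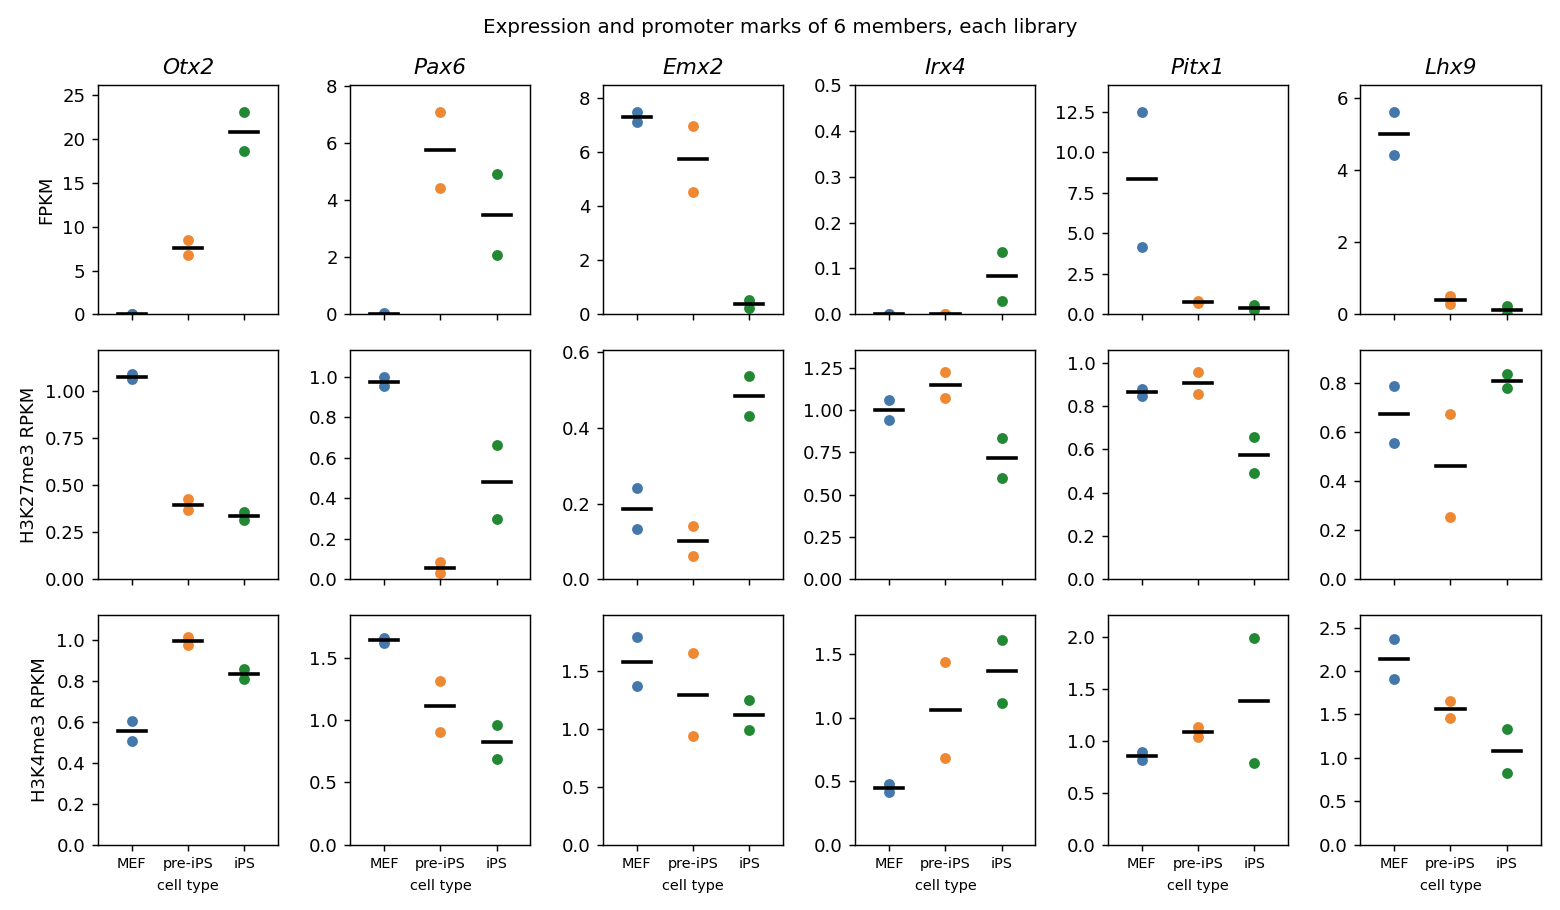
FPKM (top), H3K27me3 RPKM (middle) and H3K4me3 RPKM (bottom) of Otx2, Pax6, Emx2, Irx4, Pitx1 and Lhx9 in each library (points) of MEFs, pre-iPSCs and iPSCs, with the mean of 2 libraries as a bar and an own linear axis from 0 in each panel. Otx2 and Pax6 lose H3K27me3 where RNA appears, Emx2 has its highest H3K27me3 in iPSCs, Irx4 gains H3K4me3 with almost no RNA, and the RNA of Pitx1 and Lhx9 is high only in MEFs.

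H3K4me3 was called higher at members such as Irx4, Pax7, Six6 and Lhx3, under TMM scaling. Fewer members were called when libraries were scaled to unique reads. In pre-iPSCs against MEFs edgeR called 10 of the 60 members higher (16.7%) and none lower, where 2.97% of the 17698 promoters tested were higher and 0.848% lower (3.82% together). In iPSCs against MEFs it called 12 higher (20%) and none lower, with 9.57% and 4.2% of all (13.8% together). From pre-iPSCs to iPSCs no promoter of any gene was called by DESeq2, or by edgeR with TMM scaling, the low-count filter and all libraries. In that edgeR fit 1596 promoters and 8 members had an unadjusted p below 0.05. In that comparison edgeR called 18 promoters higher and 3 lower under unique-read scaling, 14 and 5 without a filter on low counts, and at most 52 and 18 without a single library, none of them a member. The split of calls depends on the scaling. When libraries were scaled to unique reads, the median change of all promoters moved to -0.39 and -0.37 on the log2 scale, calls over all promoters turned from 526 higher and 150 lower to 233 and 1120 in pre-iPSCs, and from 1693 and 743 to 842 and 2351 in iPSCs. Members above 0 turned from 49 of 60 to 25 in pre-iPSCs and from 50 to 33 in iPSCs. Members called were then 3 higher and none lower, and 4 higher and 2 lower. DESeq2 called 1 and 2 members, all higher, and a window of 500 bp gave 5 and 4 called. Calls over all promoters dropped too. DESeq2 called 31 and 117, and the window of 500 bp gave 245 higher and 50 lower, then 752 and 175. Leaving out either MEF library or either pre-iPSC library gave fewer called members for pre-iPSCs against MEFs, and fewer called promoters over all. The median log2 change of the members was then 0.40, 0.26, 0.32 and 0.33, against 0.26 with all libraries. For iPSCs against MEFs the same held without the first MEF library or the first iPSC library. The members' median was then 0.41 and 0.34, against 0.38.

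Irx4, a gene of the heart ventricle, had H3K4me3 of 0.474 and 0.414 RPKM in MEFs, 1.44 and 0.682 RPKM in pre-iPSCs, then 1.61 and 1.12 RPKM in iPSCs. Both MEF libraries lay below all others. It was higher by 1.63 ± 0.35 (SE, adjusted p = 0.00437) in pre-iPSCs and by 1.95 in iPSCs, and its RNA stayed at or below 0.136 FPKM. Pax7, which marks muscle stem cells and neural crest, had 0.508 and 0.605 RPKM in MEFs, 1.5 and 2.27 RPKM in pre-iPSCs, then 1.43 and 1.41 RPKM in iPSCs, again lowest in MEFs, and was higher by 2.12 ± 0.29 (SE, adjusted p = 1.7e-05) in pre-iPSCs and by 1.68 in iPSCs. Its RNA was 0 and 0 FPKM in MEFs, 2.18 and 0.132 FPKM in pre-iPSCs, then 0 and 0 FPKM in iPSCs, above 1 in 1 library of 6. Six6, an eye gene, had 0.677 and 0.605 RPKM in MEFs, 1.44 and 1.23 RPKM in pre-iPSCs, then 1.18 and 1.41 RPKM in iPSCs without RNA above 0.0218 FPKM, and was higher by 1.43 and 1.35. Lhx3, of pituitary and motor neurons, was higher by 1.16 and 1.32, and Lhx5, of the forebrain, by 1.35 in iPSCs, from 0.813 and 0.732 to 1.74 and 1.38 RPKM. Otx2 was the only member called higher in both H3K4me3 and RNA in pre-iPSCs, with 0.508 and 0.605 RPKM in MEFs, 1.01 and 0.974 RPKM in pre-iPSCs, then 0.807 and 0.855 RPKM in iPSCs and a rise of 1.20 ± 0.33 (SE, adjusted p = 0.0310). The RNA of Pax6 also rose. Its H3K4me3 measured 1.66 and 1.62 RPKM in MEFs, 1.32 and 0.909 RPKM in pre-iPSCs, then 0.962 and 0.691 RPKM in iPSCs. It was highest in MEFs on this scale of unique reads. The median of all promoters was higher there too, at least 0.955 RPKM per MEF library against at most 0.900 elsewhere. Under TMM scaling the difference of Pax6 in pre-iPSCs was -0.18 ± 0.26 and did not pass (edgeR adjusted p = 0.734). Alx1 gained H3K4me3 in pre-iPSCs (by 1.02) while its RNA fell. With DESeq2 Pax7 was the only member called in H3K4me3 in pre-iPSCs against MEFs, so Alx1 and Otx2 were not called by it. Pitx1, called higher in iPSCs (by 1.04) under TMM scaling, overlapped between the groups in RPKM, which is scaled to unique reads. It had 0.813 and 0.891 RPKM in MEFs against 1.99 and 0.789 in iPSCs. Its difference was 0.28 without the first iPSC library and did not pass. Of the 10 members called in pre-iPSCs 7 never reached 1 FPKM, and of the 12 in iPSCs 10 did not. Of all 60 members 36 (60%) did not, and of all genes 36.7%, so these counts are no result about the called members. Both calls of Pax7 and that of Irx4 in iPSCs were kept under each of the alternatives tried. Both comparisons share the MEF libraries, and exons of Six6, Nkx2-2 and Dlx4 overlap genes on the other strand.

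How often both marks stood together at these promoters depended on the level taken as present. With a mark counted as present above 1 RPKM in the mean of 2 libraries, both were present at 8 members for MEFs, 2 for pre-iPSCs and 2 for iPSCs, and at 0.422, 0.258 and 0.397% of all promoters. H3K27me3 alone was present at 7, 1 and 1 members, and at 1.21, 0.541 and 0.263% of all promoters. H3K4me3 alone was present at 33, 40 and 44 members (55, 66.7 and 73.3%). All promoters had H3K4me3 alone at 53.3, 38.8 and 39.8%, and the CpG-rich ones at 87.5, 64.4 and 64.7%. Few promoters reach 1 RPKM of H3K27me3 at this depth. Above 0.5 RPKM both marks were present at 49 members (81.7%) for MEFs, 39 (65%) for pre-iPSCs and 47 (78.3%) for iPSCs, against 11.7, 14.1 and 17.6% of all promoters and 11.9, 11.7 and 12.3% of the CpG-rich ones. Above 2 RPKM no member had both. Above 0.5 RPKM no member lacked both marks in any cell type. The Hox clusters had both marks at 24, 17 and 33 of 39 genes.

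Within a cell type, transcribed members carried less H3K27me3 than silent ones, as transcribed genes of the whole table did. In MEFs the 15 members of at least 1 FPKM in both libraries had medians of 0.454 and 0.530 RPKM, and the 42 below 1 FPKM in both had 0.879 and 0.940. In pre-iPSCs the medians were 0.169 and 0.0917 over 9 transcribed members and 0.759 and 0.764 over 44 silent ones. In iPSCs they were 0.418 and 0.313 over 10 and 0.720 and 0.686 over 49. Spearman's rho between FPKM and H3K27me3 over the 60 members, as a description of genes measured in the same libraries, was -0.51 and -0.58 for MEFs, -0.57 and -0.61 for pre-iPSCs and -0.41 and -0.50 for iPSCs. Over all genes the H3K27me3 medians were 0.121 to 0.202 RPKM for transcribed and 0.388 to 0.424 for silent genes in the 6 libraries. H3 and H3K9me3 ran the same way over the members, with an H3 rho of -0.44 and -0.61 for MEFs, -0.31 and -0.53 for pre-iPSCs and -0.33 and -0.44 for iPSCs, and of -0.60, -0.10 and -0.35 for H3K9me3. H3K4me3 did not separate them in the same way. Its rho was 0.25 and 0.32, -0.08 and -0.09 and -0.15 and -0.34. Silent members had H3K4me3 medians of 1.30 and 1.09 RPKM in iPSCs, whereas the 8815 silent genes of the whole table had 0.465 and 0.461. The CpG-rich promoters as a whole, transcribed or not, had 1.15 and 1.05, and most members are CpG-rich. Several transcribed members had a mean H3K27me3 in MEFs above both medians of their group. Among them were Pitx1 with 0.863 RPKM, Msx2 with 0.810, Dlx5 with 0.723 and Lhx9 with 0.672. Six5, transcribed in all 6 libraries, had at most 0.269 RPKM.

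**Figure D5:**
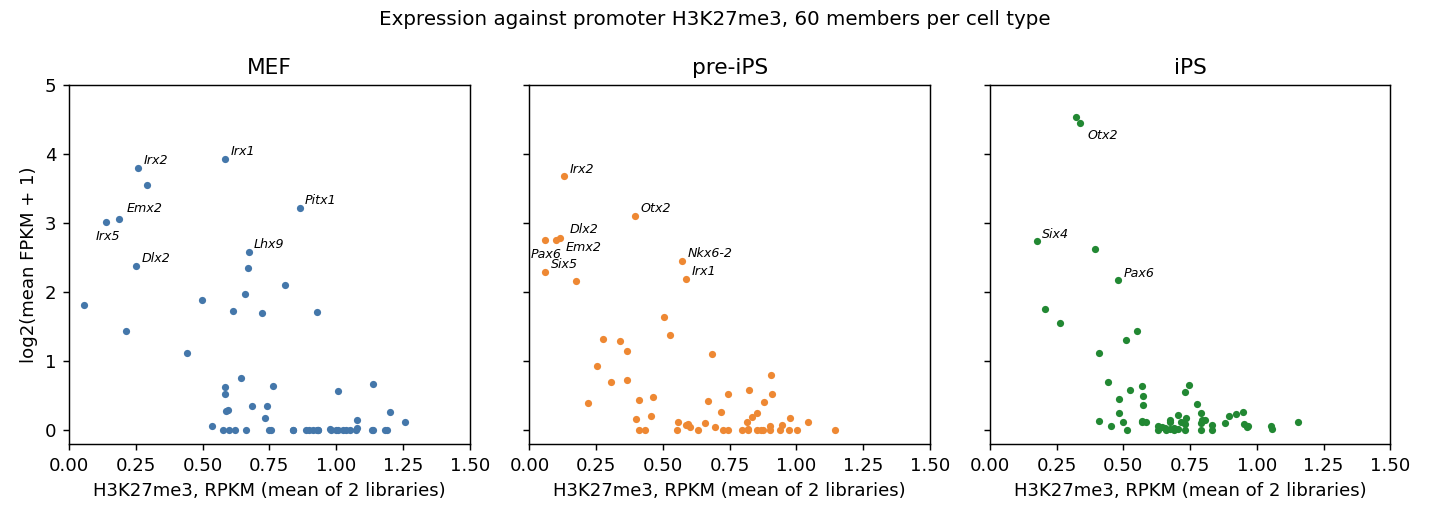
log2(mean FPKM + 1) against mean H3K27me3 RPKM of 2 libraries for the 60 members in MEFs, pre-iPSCs and iPSCs, with names for most members above 3.5 FPKM. Members above 0.8 RPKM stay below 1 on the vertical axis, apart from Pitx1, Nkx6-2 and Msx2 in MEFs.

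H3K9me3, the mark of constitutive heterochromatin, and H3, which reads nucleosome occupancy, were measured at the same promoters. The members' H3K9me3 median was 0.426 RPKM for MEFs, 0.312 for pre-iPSCs and 0.463 for iPSCs, against 0.197, 0.234 and 0.265 over all promoters. With 1 library per cell type no test was possible. The highest means were found at Nkx6-3, a stomach gene, with 0.623 for MEFs, 0.593 for pre-iPSCs and 1.19 for iPSCs, at Nkx2-1, a gene of lung and thyroid, with 0.886 for MEFs, 0.281 for pre-iPSCs and 0.794 for iPSCs, and at Nkx2-5 with 0.689 for MEFs, 0.686 for pre-iPSCs and 0.496 for iPSCs. At Otx2 it was 0.722 for MEFs, 0.468 for pre-iPSCs and 0.132 for iPSCs. The highest promoter of the whole table stood at 32.7 RPKM in MEFs. For H3 no promoter of any gene was called by edgeR or DESeq2 in the 3 comparisons with all libraries, and at an unadjusted p below 0.05 there were 364, 106 and 299 of 19560 promoters by edgeR and no member. The members' H3 median was 0.223 and 0.266 RPKM in MEFs, 1.06 and 0.196 RPKM in pre-iPSCs, then 0.618 and 0.214 RPKM in iPSCs, so replicates of pre-iPSCs and of iPSCs differed more than cell types. Without the second pre-iPSC library, which leaves only the one with the high promoter share in its group, 10 members were called higher in pre-iPSCs against MEFs, along with 1167 promoters higher and 3413 lower, and in iPSCs against pre-iPSCs 2054 promoters were higher and 85 lower, with no member among them.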

How the data were processed

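RNA-seq (6 libraries) and ChIP of MNase-digested mononucleosomes (21 libraries) were measured in MEFs, pre-iPSCs and iPSCs, grouped by GEO's labels. The authors aligned RNA reads with TopHat2 2.0.4 and deposited FPKM, computed with Cuffdiff (Cufflinks 2.0.2), in 2 tables of 1 replicate per cell type each. ChIP reads were aligned by the authors to mm9 with Bowtie 1.0.1, shifted by 73 bp to the dyad, and deposited as nucleosome calls, each with its count of reads. Reads outside calls are not in these counts.

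Here reads of calls with a dyad within 1000 bp of the TSS were summed for all 20156 genes and tested with edgeR 4.0.16 (quasi-likelihood, filterByExpr, TMM, adjusted p below 0.05, Benjamini-Hochberg over all promoters tested). For RPKM they were divided by the window and by each library's unique reads as the study lists them. Expression was compared on log2(FPKM + 1) by limma 3.58.1 (trend, the table as a term) over genes whose mean was 0.5 or more, and called at an adjusted p below 0.05 and 2-fold. FPKM carry no counts, so no count model was used. H3K9me3 has 1 library per cell type and was not tested. The alternatives were another window (500 bp), calls of at least 2 reads, no filter, other scalings, a pseudocount of 0.1, DESeq2 1.42.0, a replicate block and leaving out each library. R 4.3.3 and Python 3.11.15 were used, and both kinds of fit were tested on simulated data.

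Gene starts were taken from the deposited expression tables, promoter sequences from the mm9 genome, and exons and other starts from its GENCODE annotation. Members named in the text were those called in expression (at most 10 per comparison and direction), those with a mean of at least 5 FPKM in a cell type, the 5 largest called changes of H3K4me3 and H3K27me3 per comparison and direction, the highest member of each family, 10 well-known members, the 3 highest in H3K9me3, and called genes of the cofactor and other-homeobox lists. Other genes were named for counts of few members or to show a pattern, after their values were seen. Some genes and sequences that this rule selects are not reported here, while counts include them. The members, gene lists and tests were chosen with earlier results of these data known. Whether RNA reads were counted by strand is not given in the sources used here.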

Additional observations from a re-analysis of the deposited data

How the results depend on the processing

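Values are given in the order pre-iPSCs against MEFs, iPSCs against pre-iPSCs and iPSCs against MEFs for calls, and MEFs, pre-iPSCs and iPSCs for levels. The cause of a change was not tested unless named. In expression the members called numbered 11, 5 and 16, without a filter on low values 8, 3 and 14, and without single libraries 8 to 11, 0 to 9 and 6 to 16. In H3K4me3 they numbered 10, 0 and 12, with a window of 500 bp 5, 0 and 4, with DESeq2 1, 0 and 2, with unique-read scaling 3, 0 and 6, and without single libraries 2 to 10, 0 to 0 and 6 to 11. In H3K27me3 they numbered 7, 2 and 5, with 500 bp 1, 0 and 1, with DESeq2 1, 0 and 0, with only calls of at least 2 reads 2, 1 and 2, without a filter on low counts 7, 2 and 9, and without single libraries 1 to 8, 0 to 2 and 1 to 7. In H3 they numbered 0, 0 and 0 and without single libraries 0 to 10, 0 to 0 and 0 to 0. A smaller window holds fewer reads by construction. Over all promoters DESeq2 called 31 against 676 for H3K4me3 and 46 against 864 for H3K27me3 in pre-iPSCs against MEFs, and 117 against 2436 and 18 against 1171 in iPSCs against MEFs. With RLE size factors, quantile normalization or other pseudocounts the counts stayed within 1.5 times. Among the called values of single members none reversed its direction under the alternatives run. Uncalled values did: members with H3K4me3 above 0 in pre-iPSCs against MEFs numbered 49 of 60, and 25 with unique-read scaling, and those with H3 above 0 numbered 46, and 20 without the first pre-iPSC library. For the called values the call was lost in 61 and kept in 288 comparisons with an alternative in expression, lost in 95 and kept in 190 in H3K4me3, and lost in 71 and kept in 108 in H3K27me3.

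Members with both marks numbered 8, 2 and 2 above 1 RPKM, 49, 39 and 47 above 0.5, 0, 0 and 0 above 2, 4, 2 and 0 within 500 bp, 18, 19 and 13 when scaled to the reads in the calls, and 5 to 9, 1 to 3 and 1 to 6 without single libraries. H3K27me3 alone was found at 7, 1 and 1, and under the same settings at 2, 1 and 0, 0, 0 and 0, 3, 1 and 0, 11, 2 and 0, and 6 to 10, 0 to 2 and 0 to 2. H3K4me3 alone was found at 33, 40 and 44, above 0.5 RPKM at 9, 20 and 13, above 2 at 2, 1 and 0, and without single libraries at 24 to 36, 32 to 39 and 30 to 45. Scaling to the reads in the calls has a smaller denominator and raised the median of the members to 1.47, 1.34 and 1.44 RPKM for H3K4me3, 0.941, 0.799 and 0.837 for H3K27me3, 0.332, 0.766 and 0.581 for H3 and 0.524, 0.386 and 0.572 for H3K9me3. Within 500 bp the medians were 0.683, 0.568 and 0.555 for H3K27me3, 0.208, 0.627 and 0.426 for H3 and 0.393, 0.312 and 0.397 for H3K9me3, and with calls of at least 2 reads 0.746, 0.605 and 0.637 for H3K27me3 and 0.328, 0.218 and 0.397 for H3K9me3.

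The replicate numbers were not taken as pairs in the fits of the marks, whereas the fit of expression had the table, and with it the number, as a term. Differences between replicate 1 and 2 correlated across genes at 0.35, -0.20, 0.11 in expression between MEFs and pre-iPSCs, MEFs and iPSCs, and pre-iPSCs and iPSCs. They correlated at -0.02, 0.02, 0.11 in H3K4me3, 0.01, -0.02, 0.08 in H3K27me3 and -0.06, -0.01, 0.80 in H3. With a replicate block members called numbered 10, 0 and 13 in H3K4me3, 5, 2 and 5 in H3K27me3 and 0, 0 and 0 in H3, and without the block of tables in expression 12, 5 and 15. The 2 expression tables were made separately and each holds 1 replicate number, so the table and the number cannot be told apart.

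About 32.7 to 37.8 reads per promoter at 1 RPKM limit what H3K27me3 can show at a single gene, and the depth of the expression tables is unknown. With 2 libraries per cell type an exact permutation test over samples could not go below p = 0.33, so no such test was run.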

Other observations

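Members that lie near each other on a chromosome were compared by their levels, without a test. On chromosome 12 (mm9) the starts of Six6 and Six4 lie at 74040932 and 74214232. The RNA of Six4 is given in the report, and its mean H3K27me3 over MEFs, pre-iPSCs and iPSCs was 0.214, 0.251 and 0.176 RPKM. Six6, which never exceeded 0.0218 FPKM, had 0.899, 0.853 and 0.675 RPKM. On chromosome 8 the starts of Irx5 and Irx6 lie 316606 bp apart. H3K27me3 was 0.140, 0.175 and 0.409 RPKM at Irx5, which was transcribed in MEFs, and 0.755, 0.657 and 0.630 at Irx6, which stayed at or below 0.104 FPKM. On chromosome 2 the convergent pair of Dlx1 and Dlx2 has its start sites 17309 bp apart. Dlx2, whose RNA fell in iPSCs, had 0.250, 0.116 and 0.441 RPKM, and Dlx1, below 1 FPKM throughout, 0.583, 0.304 and 0.792. In each cell type Six4 had less H3K27me3 than Six6, Irx5 less than Irx6, and Dlx2 less than Dlx1, also where Six4 or Dlx2 did not reach 1 FPKM in both libraries. These pairs were chosen after their values were seen.

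Members of a pair did not always share their RNA. Dlx5 and Dlx6, 18734 bp apart on chromosome 6, measured 1.77 and 2.74 against 0.107 and 0.328 FPKM in MEFs, with mean H3K27me3 there of 0.723 and 0.589 RPKM. Six2 and Six3, 67420 bp apart on chromosome 17, took opposite orders: Six2 was higher in MEFs, and Six3 was at 0 in MEFs and above 1 FPKM in 1 pre-iPSC library.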
